A study of Mus musculus with 12 samples.

Results

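Genes of the TNF superfamily were followed in mouse neutrophils exposed to bile acids, namely the 6 ligand genes Tnf, Ltb, Tnfsf9, Tnfsf10, Tnfsf13b and Tnfsf14 and the 4 receptor genes Tnfrsf1a, Tnfrsf1b, Fas and Tnfrsf23. These 10 members of 29737 genes in the count table were found by symbol, and all 10 were listed and passed the filter on low counts over all 12 samples. They were chosen on results of these data, in which Tnfsf9 was higher with Tβ-MCA than with PBS and Tnfsf13b was among the changed genes. The difference between Tβ-MCA and PBS is therefore given for the members as values without a test.

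The cells were neutrophils from the bone marrow of wild-type mice, sorted as Ly6G+ cells with magnetic beads according to the labels and purified with a separating medium and an enrichment kit according to the methods of the study. They were kept for 24 h in RPMI medium with fetal bovine serum and received PBS as the control, taurocholic acid (TCA, 200 μM), glycocholic acid (GCA, 200 μM) or tauro-β-muricholic acid (Tβ-MCA, 10 μM in the labels). The study used female C57BL/6 mice, and its methods give Tβ-MCA at the same dose as the other bile acids, so the dose of Tβ-MCA is uncertain. Each of the 4 groups had 3 samples, and bulk RNA-seq gave 32757389 to 41375925 counts per sample. The columns of the table call the GCA group by the shorter name GA, which was matched to GCA through the design text. Nothing in the labels says that the 3 samples of a group came from separate mice, so p-values measure the spread between these samples, which may be technical.

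Ligands of the TNF superfamily are mostly membrane proteins that act as trimers and can be shed from the cell, and their receptors are membrane proteins with cysteine-rich repeats outside the cell. Receptors with a death domain, such as TNFR1 and Fas, can lead to caspase activation, whereas receptors without one, such as TNFR2, bind TRAF adaptors and activate NF-κB and MAP kinases. Neutrophils are a known source of TNF and of BAFF, the B cell survival factor encoded by Tnfsf13b, and Fas and TRAIL signalling are known for a part in neutrophil death and clearance.

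The third Tβ-MCA sample, replicate 5, stood apart from the other 2 in monocyte and macrophage markers, and was nearer to PBS in some neutrophil markers too. The summed level of 12 monocyte and macrophage markers was 482, 616 and 2311 CPM (counts per 1000000 counts of the sample, after TMM scaling) in Tβ-MCA replicates 3, 4 and 5, against 2971 to 3462 with PBS, 2846 to 3496 with TCA and 2028 to 3148 with GCA. The 11 neutrophil markers summed to 38372 to 43700 CPM with Tβ-MCA and to 47907 to 59328 with PBS, and 4 of them were called lower at an adjusted p under 0.05 (Ly6g, S100a8, Camp and Mmp9). Ly6g, the gene of the antigen named for the sort, was at 9.58 CPM with Tβ-MCA and 19.1 with PBS. The 6 B cell markers summed to 3.78 to 5.91 CPM with Tβ-MCA and 7.55 to 12.8 with PBS, and the 4 eosinophil markers to 53.3 to 122 and 136 to 237. Of the monocyte and macrophage markers, 1 of 12 was called lower, beside 533 of all 16761 genes tested. Without replicate 5 it was 10 of 12, beside 1617 of 17131 genes. Without Tβ-MCA replicate 3 or 4 it was 0, beside 0 of all genes. Replicate 5 was set apart by these same markers, so nothing is read from the count without it. The listed T and NK cell markers summed to 1.41 to 1.94 CPM with Tβ-MCA and 1.91 to 3 with PBS, those of basophils and mast cells to 36.3 to 49.3 and 36.1 to 56.3, and those of dendritic cells to 14.4 to 23.1 and 23 to 30.1. None of the markers in these lists was at 0 in all 12 samples, and 3 T and NK cell markers (Cd3g, Klrb1c and Trac) and 1 dendritic cell marker (Xcr1) were at 0 in at least 1 Tβ-MCA sample. The part of other cells in the values that follow was not tested, and in bulk RNA fewer cells of a type cannot be told apart from less RNA per cell. Fold changes of the members are given with and without Tβ-MCA replicate 5.

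Promoters came from RefSeq (GRCm38.p6), in which 9 of the 10 members (not Tnfsf9) were matched by symbol, and are printed for the 4 matched members whose Tβ-MCA and PBS samples did not overlap. The windows were searched on both strands, from 250 bases upstream to the start, for the NF-κB consensus (found in 7.25% of 32851 promoters of this length), the AP-1 motif TGANTCA (6.75%), the letters TATAAA (12.4%) and the PU.1 motif GAGGAAGT (2.44%). Each sequence runs 5′ to 3′ on the strand of its gene and stops before the first base of the gene in the deposited table, and capitals mark a match. Ltb is shown from chr17:35194257-35194438 (plus strand), Tnfsf13b from chr8:10006217-10006466 (plus strand), Tnfsf14 from chr17:57194190-57194431 (minus strand) and Fas from chr19:34290409-34290658 (plus strand).
Ltb: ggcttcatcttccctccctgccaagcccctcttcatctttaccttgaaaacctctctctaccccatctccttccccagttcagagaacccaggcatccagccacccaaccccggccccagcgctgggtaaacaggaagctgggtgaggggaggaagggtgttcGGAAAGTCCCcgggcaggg
Tnfsf13b: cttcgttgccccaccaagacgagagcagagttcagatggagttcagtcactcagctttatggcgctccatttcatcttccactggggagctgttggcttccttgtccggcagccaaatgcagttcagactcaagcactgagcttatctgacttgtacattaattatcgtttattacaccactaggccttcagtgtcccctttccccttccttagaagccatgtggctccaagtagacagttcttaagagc
Tnfsf14: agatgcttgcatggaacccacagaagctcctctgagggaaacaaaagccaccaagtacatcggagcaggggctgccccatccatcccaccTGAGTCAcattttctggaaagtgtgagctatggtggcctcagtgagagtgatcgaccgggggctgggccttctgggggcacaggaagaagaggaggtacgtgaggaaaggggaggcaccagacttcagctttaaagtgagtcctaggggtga
Fas: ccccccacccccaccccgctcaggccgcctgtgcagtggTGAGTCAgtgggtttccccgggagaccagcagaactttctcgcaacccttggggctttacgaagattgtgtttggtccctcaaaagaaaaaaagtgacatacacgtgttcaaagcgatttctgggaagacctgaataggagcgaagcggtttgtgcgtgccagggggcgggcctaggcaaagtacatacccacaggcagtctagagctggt
The Ltb window held an NF-κB match at -87 from the RefSeq start, and the Tnfsf14 and Fas windows each held an AP-1 match, at -160 and -211. The Tnfsf13b window held none of the 4 motifs, and a second RefSeq start of that gene had an AP-1 match at -127. Of the promoters not shown, Tnf had the TATA letters at -29 and Tnfrsf23 at -158, and those of Tnfsf10, Tnfrsf1a and Tnfrsf1b had no match. These matches describe the letters only and do not show that a factor binds.

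The levels of the members were first ordered with PBS by the RPKM values that the authors deposited, which are counts scaled by the exon length of the gene and by the counts of the sample. The TNF receptor genes Tnfrsf1b and Tnfrsf1a led at 43.0 ± 7.02 and 41.8 ± 1.78 RPKM (SD, n = 3) and overlapped each other. Fas, the receptor of Fas ligand, followed at 24.7 ± 0.874 RPKM and was apart from both neighbours. The 3 ligand genes Tnfsf14 (16.3 ± 3.15), Tnf (14.5 ± 0.939) and Ltb (14.2 ± 0.374 RPKM) came next, and each overlapped its neighbour in that order. Tnfsf13b was at 2.41 ± 0.0574 RPKM and Tnfrsf23, a decoy receptor for TRAIL, at 0.864 ± 0.130 RPKM, with no overlap of either with its neighbours. Tnfsf9, which encodes the ligand of 4-1BB, and Tnfsf10, which encodes TRAIL, were the lowest at 0.225 ± 0.117 and 0.0751 ± 0.0298 RPKM and overlapped.

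Much of the rest of the superfamily was under the filter. Of 12 other ligand genes only Tnfsf12 and Tnfsf13 were tested, and Cd40lg, Tnfsf11 and Eda stayed under 3 counts in every sample. Of 24 other receptor genes 23 were listed and 16 were tested, and Tnfrsf11b, Tnfrsf17, Tnfrsf19 and Eda2r stayed under 3 counts in every sample. The ligand with the highest level was Tnfsf13, the APRIL gene and no member, at 24.3 ± 2.33 RPKM, which shares exon sequence with the Tnfsfm13 read-through gene and is uncertain for that reason.

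**Figure D1:**
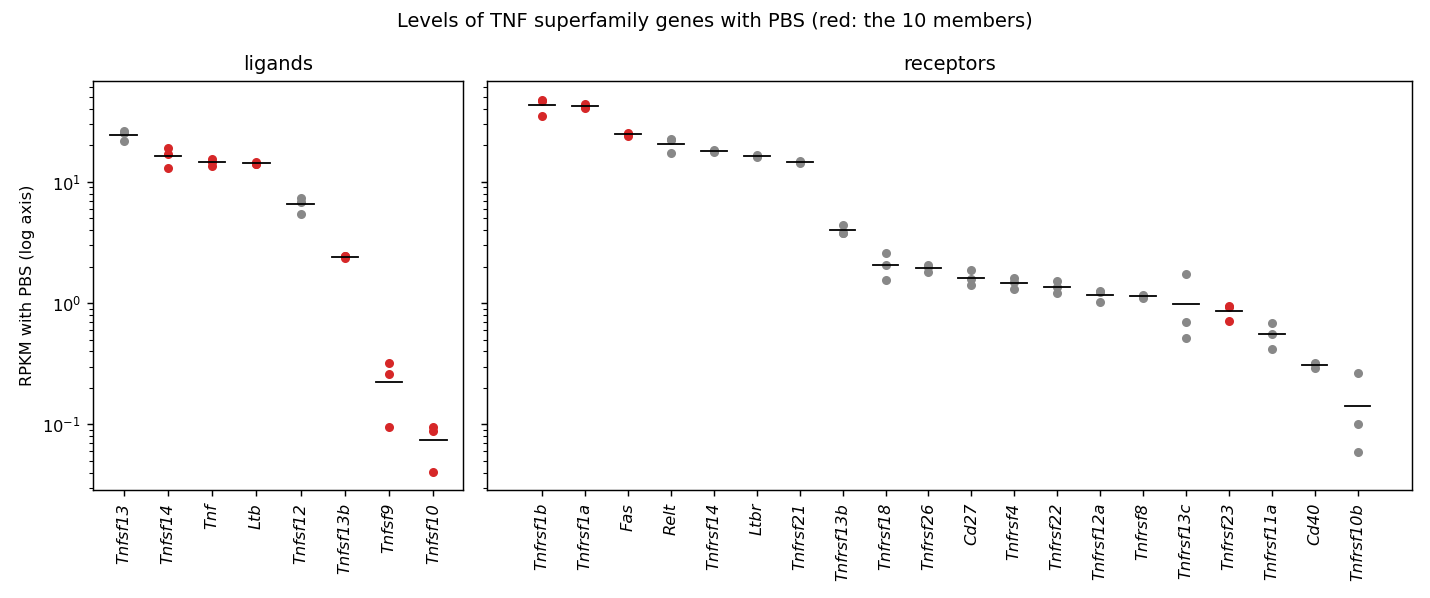
Deposited RPKM on a log axis in the 3 PBS samples (points) with their mean (line) for the ligand and receptor genes that passed the filter, members in red. Tnfrsf1b (43.0) and Tnfrsf1a (41.8 RPKM) are the highest receptors, and Tnfsf9 (0.225) and Tnfsf10 (0.0751 RPKM) are the lowest ligands.

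Among the ligands, Tnfsf13b lies at chr8:10006467-10039072 on the plus strand (GRCm38, as are all gene positions here). Its level was 17.2, 16.9 and 16.1 CPM with PBS and 26.5, 26.9 and 19.7 CPM with Tβ-MCA, in the order of the replicate numbers. All Tβ-MCA samples were above all PBS samples, and replicate 5, which kept most of the monocyte markers, was the lowest of the 3. The means of 24.4 and 16.7 CPM gave a log2 fold change of 0.54 (SE 0.12) for Tβ-MCA over PBS, and 0.67 (SE 0.11) without replicate 5. The level was 15.6, 14.2 and 16.2 CPM with TCA and 16, 19.8 and 15.3 CPM with GCA, and both groups overlapped PBS.

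Tnfsf14 encodes LIGHT, a ligand of the herpesvirus entry mediator and of the lymphotoxin β receptor, and lies at chr17:57189492-57194189 on the minus strand. It was at 24.5, 35.7 and 31.6 CPM with PBS and at 41.5, 54.4 and 36.5 CPM with Tβ-MCA. The groups did not overlap, though the lowest Tβ-MCA sample (replicate 5, 36.5 CPM) was close to the highest PBS sample (35.7 CPM). The log2 fold change was 0.53 (SE 0.17), and 0.65 (SE 0.17) without replicate 5. TCA samples were at 32.7, 31.5 and 36.4 CPM and GCA samples at 29.3, 40 and 34.6 CPM, and both groups overlapped PBS.

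Tnfsf9 lies at chr17:57105385-57107757 on the plus strand, and its product costimulates T cells through 4-1BB. The count was 14, 4 and 12 with PBS, 8, 12 and 11 with TCA, 13, 16 and 12 with GCA and 17, 28 and 18 with Tβ-MCA. These few reads correspond to 0.401, 0.118 and 0.323 CPM with PBS and 0.508, 0.756 and 0.482 CPM with Tβ-MCA. The Tβ-MCA samples were above the PBS samples, with a log2 fold change of 1.04 (SE 0.43), and 1.16 (SE 0.48) without replicate 5. The size of this difference moved with single samples, since it was 0.68 without PBS replicate 5, the lowest sample, and 1.37 without PBS replicate 3, the highest PBS sample.

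Ltb encodes lymphotoxin β, which anchors lymphotoxin at the cell surface, and lies at chr17:35194439-35196320 on the plus strand, next to Tnf. It was at 21.6, 21.6 and 22.2 CPM with PBS and at 13.1, 15.8 and 19.4 CPM with Tβ-MCA. All Tβ-MCA samples were below all PBS samples, and replicate 5 was again the closest to PBS. The log2 fold change was -0.44 (SE 0.13), and -0.59 (SE 0.12) without replicate 5. TCA samples (18.3, 20.8 and 21.0 CPM) and GCA samples (17.5, 16.1 and 21.5 CPM) were also below the PBS samples, but overlapped them when CPM was scaled by total count alone, an alternative added after the values were seen.

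Tnf, the gene of the founding cytokine of the family, lies at chr17:35199381-35202007 on the minus strand. It was at 25.6, 24.3 and 22.1 CPM with PBS, 22.4, 23.4 and 21.9 CPM with TCA, 17.9, 23.5 and 24.3 CPM with GCA and 19.6, 19.8 and 22.5 CPM with Tβ-MCA. Each bile acid group overlapped PBS, and the log2 fold change of Tβ-MCA over PBS was -0.22 (SE 0.11), and -0.29 (SE 0.12) without replicate 5.

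Tnfsf10 (chr3:27317028-27342427, plus strand) was close to the limit of detection. It had 18, 16 and 8 counts with PBS, 8, 17 and 0 with TCA, 4, 4 and 8 with GCA and 13, 0 and 8 with Tβ-MCA. If counts were independent, a count of 0 would allow up to 3 counts (counting error only). That is 0.0813 CPM in TCA replicate 5 and 0.0835 CPM in Tβ-MCA replicate 4. In every sample, however, at least 2.93 genes had 2 counts for each gene with 1 count. Counts may thus come in pairs, and the limit may be higher. The log2 fold change of Tβ-MCA over PBS was -1.0 (SE 0.87), and -1.07 (SE 1.04) without replicate 5, and a difference was not detectable at this depth.

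Among the receptors, Tnfrsf1a encodes TNFR1, the receptor with a death domain, and lies at chr6:125349362-125362484 on the plus strand. Its level was 107, 114 and 107 CPM with PBS and 89.8, 98.3 and 110 CPM with Tβ-MCA, with overlap. The log2 fold change was -0.14 (SE 0.08), and -0.22 (SE 0.07) without replicate 5. TCA samples were at 101 to 114 CPM and GCA samples at 101 to 110 CPM.

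Tnfrsf1b encodes TNFR2 and lies at chr4:145213463-145246870 on the minus strand. It was at 136, 179 and 182 CPM with PBS and 152, 171 and 174 CPM with Tβ-MCA, with means of 166 CPM in both. Replicate 3 was the lowest sample in each of the 4 groups, at 136 CPM with TCA and 144 CPM with GCA. The log2 fold change of Tβ-MCA over PBS was 0.00 (SE 0.13), and -0.04 (SE 0.15) without replicate 5.

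Fas (chr19:34290659-34327770, plus strand) was at 43.7, 45.5 and 45.7 CPM with PBS and 35.5, 43.5 and 43.5 CPM with Tβ-MCA. The Tβ-MCA samples were just below the PBS samples, with a log2 fold change of -0.14 (SE 0.09), and -0.19 (SE 0.10) without replicate 5. With CPM scaled by total count alone they overlapped, at 36.2 to 44.8 and 42.7 to 45.6 CPM. Fas was at 35.6, 40.8 and 40.8 CPM with TCA and 35.5, 40.3 and 40.1 CPM with GCA, so both groups were below the PBS samples, also when scaled by total count, and replicate 3 was the lowest of each bile acid group.

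Tnfrsf23 (chr7:143665809-143685872, minus strand) was at 2.90, 3.74 and 3.75 CPM with PBS and 3.05, 3.62 and 3.77 CPM with Tβ-MCA, a log2 fold change of 0.01 (SE 0.17), and -0.05 (SE 0.20) without replicate 5. Its neighbour Tnfrsf22, a closely related decoy receptor, was at 6.0 CPM with Tβ-MCA and 5.83 CPM with PBS. Reads may be split between these related genes, and exons of Tnfrsf23 overlap E230032D23Rik on the other strand while the strand setting of the counting is not given in the sources used here, so both levels are uncertain.

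In all, 5 of the 10 members had Tβ-MCA and PBS samples that did not overlap, 3 above (Tnfsf9, Tnfsf13b and Tnfsf14) and 2 below (Ltb and Fas, of which Fas overlapped when scaled by total count), beside 27% of all 16761 genes tested. All 3 that were above are ligands, as are 6 of the 10 members. The other ligand members, Ltb, Tnf and Tnfsf10, had negative log2 fold changes. The median log2 fold change was -0.07 over the members and 0.00 over all genes. Over all genes, 4.44% were called higher and 3.18% lower at an adjusted p under 0.05 (745 and 533 genes, or 1013 and 395 when scaled by total library size), and 2.95% passed the thresholds of the study (unadjusted p under 0.05 and a fold of at least 2). The members were chosen on this contrast, so nothing is read from their count or from which of them are ligands.

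**Figure D2:**
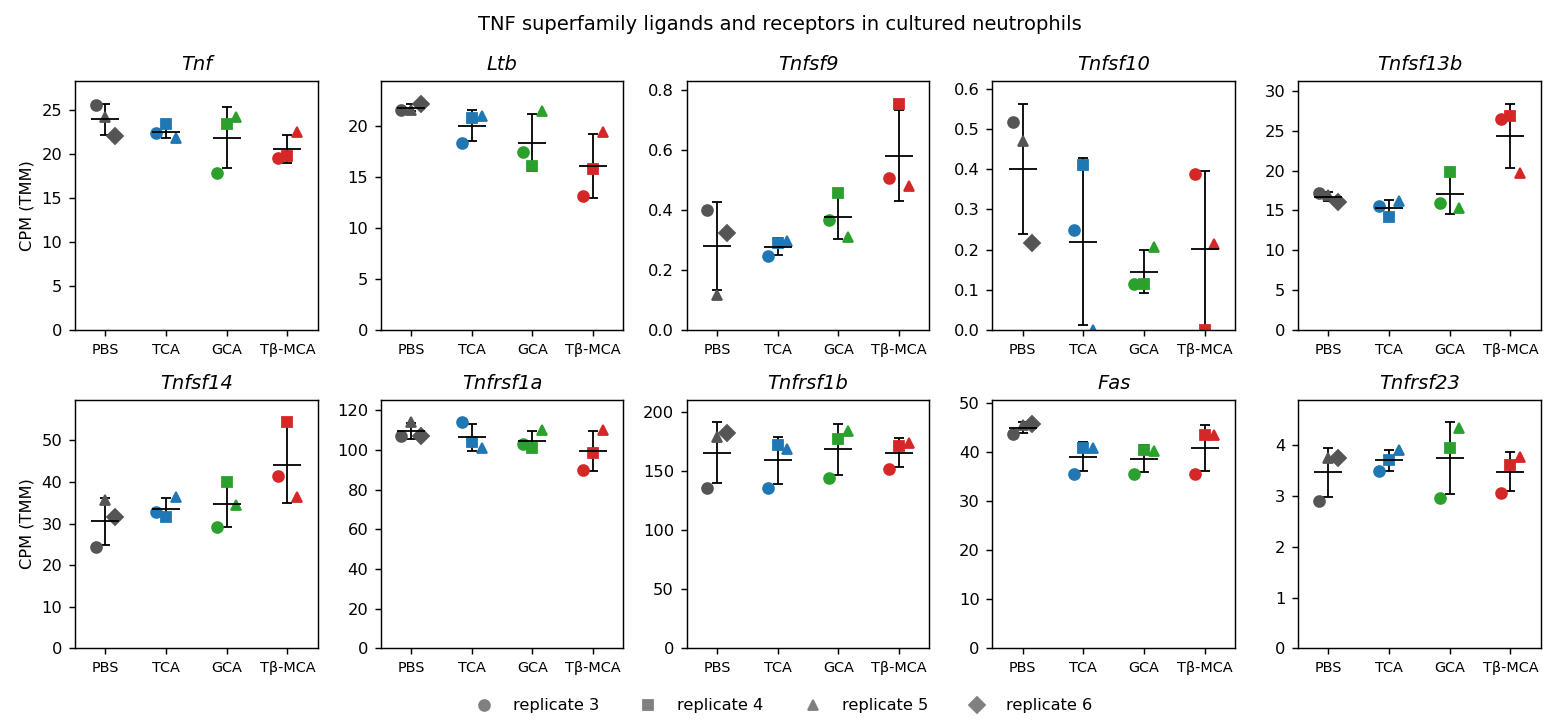
CPM after TMM scaling in each of the 12 samples for the 10 members, each panel with its own axis from 0, with points shaped by replicate number and black marks for the mean ± SD of 3 samples. Tnfsf9, Tnfsf13b and Tnfsf14 are higher in the Tβ-MCA samples than in the PBS samples, and Ltb is lower. In each of these genes replicate 5 (triangle) is the Tβ-MCA sample nearest to PBS, by little for Tnfsf9.

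The series compared neutrophils under single conjugated bile acids. Whether the cholate conjugates TCA and GCA shifted the members was tested with edgeR's quasi-likelihood test, adjusted by the Benjamini-Hochberg method over all genes. The PBS samples in these tests are those on which the members were chosen. With TCA, 0 of 10 members and 0% of all genes were called (0 genes by edgeR, 1 gene by DESeq2). At an unadjusted p under 0.05, 1 member passed beside 3.26% of all genes. That member was Fas, with a log2 fold change of -0.20 (SE 0.09, adjusted p = 1). Samples did not overlap for 2 members, Ltb and Fas, both below PBS, beside 9.67% of all genes, and for 1 of them, Fas, when scaled by total count.

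With GCA, 0 of 10 members and 0% of all genes were called (0 genes by edgeR and by DESeq2), and 1 member passed an unadjusted p under 0.05 beside 3.53% of all genes. It was again Fas, with a log2 fold change of -0.22 (SE 0.09, adjusted p = 0.999). Samples did not overlap for 3 members, Ltb, Fas and Tnfsf10, all below PBS, beside 9.55% of all genes, and for 2 of them, Fas and Tnfsf10, when scaled by total count. For Tnfsf10 the nearest samples, GCA replicate 5 (0.207 CPM) and PBS replicate 6 (0.216 CPM), both had 8 counts. Their order thus came from library depth alone. Ltb with GCA had a log2 fold change of -0.24 (SE 0.13, adjusted p = 0.999). The median log2 fold change of the members was -0.07 with TCA and -0.02 with GCA.

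TCA and GCA carry the same bile acid, cholate, joined to taurine or to glycine, and were given at the same dose and time. They were the only pair compared at a matched dose, and the members were not chosen on the samples of these 2 groups. The filter and the estimate of the spread, however, came from all 12 samples, including those used for the choice. No member was called between them (0% of all genes by edgeR, 0 genes by DESeq2), and 0 members passed an unadjusted p under 0.05 beside 2.46% of all genes. The groups did not overlap for 1 member, Tnfsf9, with GCA above TCA, beside 8% of all genes. Its log2 fold change was 0.43 (SE 0.45, adjusted p = 1), from means of 0.378 and 0.279 CPM.

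The 95% intervals of the log2 difference, GCA minus TCA, show how large a difference remained possible. They ran from -0.19 to 0.13 for Tnfrsf1a, from -0.21 to 0.17 for Fas, from -0.27 to 0.19 for Tnf and from -0.11 to 0.42 for Tnfsf13b. For Ltb the interval was -0.40 to 0.15, for Tnfsf14 -0.31 to 0.41, for Tnfrsf1b -0.19 to 0.36 and for Tnfrsf23 -0.35 to 0.38. The well-counted members were thus bounded to less than 1 log2 unit in both directions, while Tnfsf9 (-0.52 to 1.38) and Tnfsf10 (-2.66 to 1.46) were not. Because the labels give Tβ-MCA at another dose, its values stand beside those of TCA and GCA without a comparison.

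**Figure D3:**
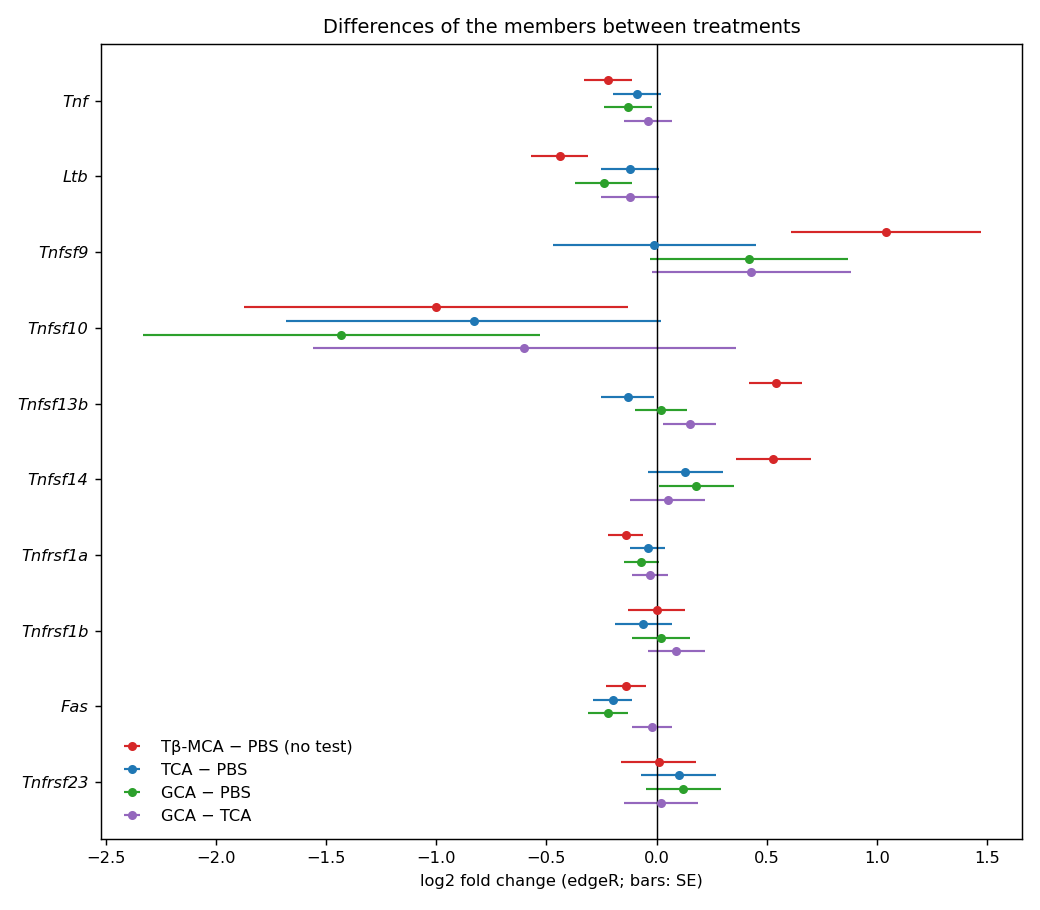
Fitted log2 fold changes (points) with their SE (bars) for the 10 members in 4 contrasts of 3 samples each. The Tβ-MCA values of Tnfsf13b (0.54), Tnfsf14 (0.53) and Tnfsf9 (1.04) lie right of 0 and that of Ltb (-0.44) left of it, and the widest bars belong to Tnfsf10 and Tnfsf9, the members with the fewest counts.

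The receptors that the member ligands bind were chosen by their textbook pairing after their values were seen. Tnfrsf13b, which encodes the BAFF receptor TACI, was at 6.97, 7.85 and 10.6 CPM with Tβ-MCA and 10.7 to 12.6 CPM with PBS (log2 -0.43, SE 0.15, adjusted p = 0.0937). Tnfrsf13c, the BAFF receptor with a main role on B cells, was at 0.752 and 2.02 CPM on average (log2 -1.43, SE 0.68, adjusted p = 0.224), and its log2 fold change was -1.75 (SE 0.83, adjusted p = 0.195) without replicate 5, beside the lower B cell markers given above. It was called lower without the filter on low counts, and its adjusted p ran from 2.52e-05 to 0.587 over the alternatives. Tnfrsf14, the entry mediator bound by LIGHT, was at 15.0, 14.5 and 19.9 CPM with Tβ-MCA and 20.3 to 21.7 CPM with PBS (log2 -0.35, SE 0.11, adjusted p = 0.0736). In both genes the third Tβ-MCA sample was nearest to PBS, and whether they passed depended on the setting. Without replicate 5, Tnfrsf13b had a log2 fold change of -0.63 (SE 0.14, adjusted p = 0.0063) and Tnfrsf14 one of -0.51 (SE 0.10, adjusted p = 0.00259). Both were called lower, beside 1617 of all 17131 genes tested in that fit. DESeq2 (adjusted p = 0.0499 and 0.0364) and edgeR without the filter (0.0219 and 0.0323) also called both. With the replicate number added to the edgeR fit neither was called (0.169 and 0.103). Over all alternatives adjusted p ran from 0.0063 to 0.322 for Tnfrsf13b and from 0.00259 to 0.294 for Tnfrsf14. Ltbr, the lymphotoxin β receptor, was at 41.9 CPM with Tβ-MCA and 38.7 CPM with PBS (log2 0.11, SE 0.08, adjusted p = 0.398), and at a log2 fold change of 0.14 (SE 0.09) without replicate 5. Tnfrsf9, which encodes 4-1BB, did not pass the filter and had at most 12 counts in a sample, and Tnfrsf10b, the TRAIL receptor, was at 0.499 and 0.457 CPM with an interval of the log2 difference from -0.91 to 1.17.

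The remaining genes of the pathway were taken from a list of 76 ligands, receptors, shedding factors, adaptors, death signalling genes, kinases and NF-κB genes, of which 75 were in the table and 57 were tested. With Tβ-MCA against PBS, 2 were called higher and 3 lower and 52 were not called, beside 4.44% higher and 3.18% lower of all genes. None passed the thresholds of the study, and the median log2 fold change was -0.03 against 0.00 over all genes. An unadjusted p under 0.05 was found for 14 of the 57, beside 4176 of all 16761 genes. By role, the calls were 0 of 2 other ligands, 1 of 16 other receptors, 1 of 2 shedding genes, 2 of 16 adaptors and ubiquitin enzymes, 0 of 6 death signalling genes and 1 of 15 kinases and NF-κB genes.

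Traf5, an adaptor of CD40 and other receptors, rose from 7.21 to 11.9 CPM (log2 0.72, SE 0.16, adjusted p = 0.0219). Its samples were at 14.1, 12.3 and 9.36 CPM with Tβ-MCA and 7.48, 5.97 and 8.17 CPM with PBS, without overlap. Exons of Traf5 overlap Mir3473c on the same strand and Gm26879 on the other strand, so its level is uncertain, as for Tnfrsf23. Cd40, the receptor of CD40 ligand, rose from 1.07 to 1.97 CPM (log2 0.89, SE 0.24, adjusted p = 0.0379), at 1.82, 2.35 and 1.74 CPM against 1.0 to 1.12 CPM. With the replicate number added to the edgeR fit, Cd40 was not called (adjusted p = 0.089), whereas Traf5 was (adjusted p = 0.00862). The call of Cd40 with Tβ-MCA thus depended on whether replicate numbers were used. With GCA the Cd40 samples, at 1.15 to 1.77 CPM, were also above the PBS samples, without a call in edgeR (adjusted p = 0.999). With TCA they overlapped PBS, as Traf5 did with TCA and with GCA.

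The 3 genes that fell did so by little. Rhbdf2, which encodes iRhom2, the partner of the TNF-shedding protease ADAM17, fell from 65.4 to 50.6 CPM (log2 -0.37, SE 0.09, adjusted p = 0.0277). Tank, a TRAF-binding regulator of NF-κB, fell from 99.7 to 82.0 CPM (log2 -0.28, SE 0.07, adjusted p = 0.0281). Nfkbia, the NF-κB inhibitor and target gene IκBα, fell from 419 to 348 CPM (log2 -0.26, SE 0.07, adjusted p = 0.0347). In all 3 the Tβ-MCA samples lay below the PBS samples. For Nfkbia this also held with TCA (349 to 399 CPM) and GCA (348 to 405 CPM), against 409 to 433 CPM with PBS. Over all genes, 9.67% with TCA and 9.55% with GCA did not overlap PBS. Rhbdf2 and Tank overlapped PBS with both.

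Without Tβ-MCA replicate 5, in which the monocyte markers were nearest to PBS, the log2 fold changes were 0.87 for Traf5, 0.97 for Cd40, -0.47 for Rhbdf2, -0.32 for Tank and -0.30 for Nfkbia. The calls depended on single samples. Without Tβ-MCA replicate 5 there were 13 calls (3 higher and 10 lower), beside 1459 higher and 1617 lower of all 17131 genes tested. Without PBS replicate 3, PBS replicate 5, Tβ-MCA replicate 3 or Tβ-MCA replicate 4 there were 0, and 0 among all genes. In these fits 13, 12, 8 and 10 of the pathway genes had an unadjusted p under 0.05. Over all genes these were 3599 of 17113, 3471 of 17136, 3007 of 17127 and 2875 of 17106. Without PBS replicate 6 there were 2, Rhbdf2 and Traf5, beside 104 higher and 64 lower of 17124 genes. The swing was thus not particular to the pathway genes. With TCA or GCA against PBS, and between GCA and TCA, 0 of the 57 genes were called by edgeR. At an unadjusted p under 0.05 there were 3, 1 and 0, beside 3.26%, 3.53% and 2.46% of all genes.

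**Figure D4:**
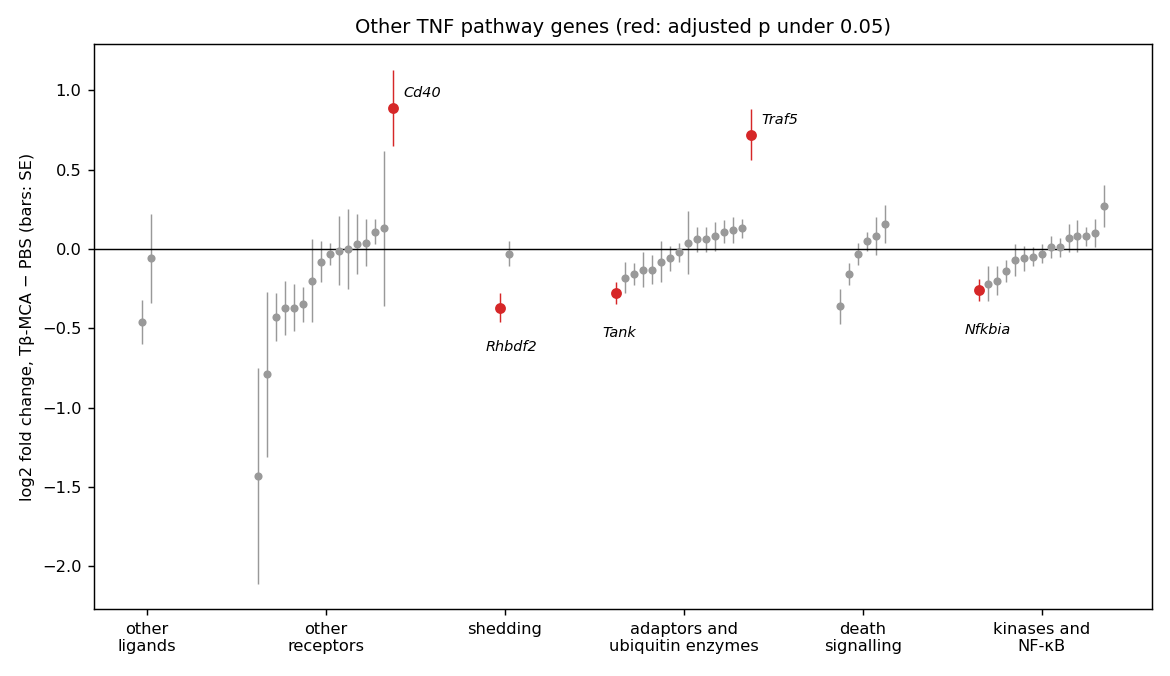
Log2 fold change of Tβ-MCA over PBS (points) with its SE (bars) for the 57 other pathway genes tested, grouped by role and sorted within each. The 5 genes called (red) are Cd40 (0.89) and Traf5 (0.72) above 0 and Rhbdf2 (-0.37), Tank (-0.28) and Nfkbia (-0.26) below it.

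Genes with a pattern most like that of Tnfsf9 and Tnfsf13b were ranked by Pearson's r of log2 CPM over the 12 samples among 16761 genes, as a description, since the samples share the treatment groups. For Tnfsf13b the closest were Ndrg3 (r = 0.974), Ocel1 (0.972) and Mapre2 (0.970). Ndrg3 was at 31.5, 31.0 and 20.9 CPM with Tβ-MCA and 17.2 CPM on average with PBS, with the third sample nearest to PBS as for Tnfsf13b. For Tnfsf9 they were Gm26690 (r = 0.938), Gm35025 (0.914) and Helq (0.910), which rest on few counts of Tnfsf9. Among the members, the closest pairs were Tnfrsf1b with Tnfrsf23 (r = 0.823), Ltb with Tnfrsf1a (0.766) and Tnfsf13b with Tnfsf14 (0.752).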

How the data were processed

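RNA of 12 neutrophil samples was sequenced from stranded mRNA libraries. According to the submitters' processing notes and the study's methods, the authors trimmed reads with Trimmomatic 0.36, used STAR 2.5.3a and GRCm38 (mm10), counted reads on exons with featureCounts (Subread 1.5.1) and deposited a raw count and an RPKM value per gene. The strand setting of the counting is not given in the sources used here. Recalculating the RPKM values from the counts gave the same values to within a relative 1.3e-06. The table had 2 duplicated symbols, none of them a member.

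The counts were scaled by TMM, with factors of 0.972 to 1.03, and filtered with filterByExpr by group. The robust quasi-likelihood test of edgeR 4.0.16 (R 4.3.3) was fitted to 16761 genes over all 12 samples, with group as the only term, and p was adjusted by the Benjamini-Hochberg method. A gene was called at an adjusted p under 0.05. The test was run on simulated counts before use. SEs come from the F statistic. Log2 CPM used a prior count of 2. RPKM served only to order genes by level. Python 3.11.15 with pandas 2.3.3, numpy 2.4.6 and matplotlib 3.10.9 made the summaries and plots. Alternatives were DESeq2 1.42.0, other size factors, no filter, only 2 groups, a replicate block and leaving out each sample.

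The members and the gene lists were chosen with earlier results of these data known. All members are named. Other pathway genes were named when called, up to 6 in each direction by lowest p, with Tnfrsf22 beside Tnfrsf23 and the 3 genes most like Tnfsf9 and Tnfsf13b. The result of 1 marker list is not reported here.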

Additional observations from a re-analysis of the deposited data

How the results depend on the processing

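For the members, 0 were called with TCA, with GCA or between the 2 under every alternative run, and the leave-one-out range was 0 to 0. With only the 2 groups compared, 9 of the 10 members were tested for GCA against PBS and for GCA against TCA. The count of other pathway genes called with Tβ-MCA moved most. It was 5 in the analysis reported, 11 without the filter on low counts and 9 with DESeq2. With only the 2 groups compared it was 0 (12 at an unadjusted p under 0.05, beside 3485 of all 16064 genes). At the study's thresholds it was 0, and leaving out 1 sample at a time gave 0 to 13. Adjusted p over the alternatives ran from 1.49e-05 to 0.116 for Traf5, 0.0161 to 0.178 for Cd40, 0.00126 to 0.137 for Rhbdf2, 0.00303 to 0.138 for Tank and 0.00744 to 0.147 for Nfkbia. Over all genes, total library size gave 1013 higher and 395 lower calls with Tβ-MCA against 745 and 533 with TMM. DESeq2 gave 1061 and 1042, no filter 1108 and 1298, only the 2 groups 0 and 0, and leaving out 1 sample gave 0 and 0 (without PBS replicate 3 or 5, or Tβ-MCA replicate 3 or 4), 104 and 64 (without PBS replicate 6) or 1459 and 1617 (without Tβ-MCA replicate 5). Without the filter, 15 genes were called higher and 22 lower with TCA, 13 and 23 with GCA, and 18 and 24 between GCA and TCA, none of them a member.

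No label ties samples of the same number, and the numbers were not used to pair samples because 3 of the same-numbered pairs did not correlate above 0.1. Deviations of 15 same-numbered pairs correlated at 0.189 on average (0.0597 to 0.326), 39 other pairs at -0.0716, and 10 of 11 samples with a same-numbered sample were closest to one, a hint from the data and not from the design that the numbers may mark something shared. With the replicate block, all genes gave 771 higher and 727 lower calls with Tβ-MCA and 1 and 2 with TCA, 6 other pathway genes were called (1 higher and 5 lower), and Cd40 had an adjusted p of 0.089. Under the block the log2 fold change was 0.00 for Tnfsf9 with TCA and -0.05 for Tnfsf13b with GCA, both opposite in sign to values near 0.

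Leaving out 1 sample turned the sign of some small log2 folds. Against PBS, the ranges with TCA were -0.37 to 0.32 for Tnfsf9, -0.01 to 0.26 for Tnfsf14, -0.19 to 0.04 for Tnfrsf1b and -0.02 to 0.16 for Tnfrsf23. With GCA they were -0.10 to 0.10 for Tnfsf13b, -0.10 to 0.13 for Tnfrsf1b and -0.00 to 0.26 for Tnfrsf23. For GCA minus TCA they were -0.13 to 0.08 for Tnf, -1.17 to 0.30 for Tnfsf10, -0.07 to 0.15 for Tnfsf14, -0.07 to 0.02 for Tnfrsf1a, -0.01 to 0.19 for Tnfrsf1b, -0.08 to 0.04 for Fas and -0.10 to 0.16 for Tnfrsf23. At 4 to 28 counts for Tnfsf9 and 0 to 18 for Tnfsf10, depth limited these 2 members most.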
